A study of Homo sapiens with 12 samples.

Results

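The ATF and CEBP stress factors examined here were ATF3, ATF4, ATF5, DDIT3, CEBPA, CEBPB, CEBPD, CEBPG, TRIB3 and CHAC1. Of these 10 genes, several act in the integrated stress response, and CEBPA and CEBPD were included as members of the CEBP family. They were taken by name, with every probe set that the platform annotation assigned to exactly 1 of them, which gave 18 of 54675 probe sets and 10 of the 19775 genes on the array. Each gene was represented by its probe set whose mean was highest across the 12 arrays, and the other probe sets are described beside it. RNA came from HK-2 cells, an immortalised line of human proximal tubule epithelium, in 4 groups of 3 biological replicates: a high dose of Aa for 24 h, its vehicle control for 24 h, a high dose of Aa for 48 h, and its vehicle control for 48 h. What Aa and its vehicle are, and the dose, is not stated by the sources here. All 4 groups grew in the same defined medium with epidermal growth factor, hydrocortisone, insulin and transferrin, and were treated near confluence. HK-2 is a single line, so the replicates measure the spread between cultures of that line. The study sought expression signatures of kidney toxicity, and the comparison with control at each time asks which transcripts differed after Aa.

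The integrated stress response starts when kinases phosphorylate the translation factor eIF2alpha, which lowers protein synthesis in general while the ATF4 and ATF5 messages are translated more. ATF4 then binds composite DNA elements as a dimer with a CEBP protein and activates genes for amino acid supply, along with ATF3, DDIT3 (also called CHOP), TRIB3 and CHAC1. In the proximal tubule, ATF3 is a known early gene of ischaemic and toxic injury, and DDIT3 is linked to cell death under lasting endoplasmic reticulum stress. Arrays measure mRNA, so the translational step in this pathway lies outside these data.

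The expression values are log2 values made by the authors with GCRMA, a method that sets arrays to nearly one distribution; array medians lay between 2.91 and 3.02. Over all probe sets, correlations were 0.994 to 0.997 inside a group and 0.949 to 0.975 for an Aa with a control array. Of 15 proximal tubule and epithelial markers on the array, 8 were over log2 4 on all 12 arrays. These were PAX8, KRT8, KRT18, KRT19, CDH1, CDH2, EPCAM and VIM. VIM, on the list though not specific to epithelium, was the brightest of them, averaging 13.98 on Aa arrays and 14.35 on control arrays. The brush border and transport genes LRP2, CUBN, ANPEP, AQP1, SLC34A1 and SLC5A2 were over log2 4 on 0 arrays, and GGT1 on 1 array. Most of these features of the mature tubule were therefore not detected. All 4 leukocyte markers were below log2 4 on every array. Of 5 endothelial markers, 4 were over log2 4 on 0 arrays. TEK, the other, was over it on 11 arrays, averaging 4.16 on Aa and 4.01 on control arrays. The 15 tubule and epithelial markers averaged 6.88 to 7.12 on Aa arrays and 7.29 to 7.52 on control arrays, and their part in the results below was not tested. Of the 8 that were tested, 0 rose and 4 fell at 24 h (median log2 change -0.49), and 1 rose and 6 fell at 48 h (median -0.80). That is 50% passing by limma at 24 h, where 49.1% of all genes passed, and 87.5% at 48 h, where 64.5% did; at an unadjusted p under 0.05, too, 0 of the 8 rose at 24 h. The 5 fibroblast markers averaged 5.48 to 5.70 on Aa arrays and 5.58 to 5.94 on control arrays. COL1A1 and DCN were over log2 4 throughout, and COL3A1, PDGFRB and PDGFRA were over it on 0 arrays. The gap of the 3' over the 5' control probe sets, which widens as RNA degrades, averaged 0.39 on Aa and 0.31 on control arrays at 24 h, and 0.54 on Aa and 0.32 on control arrays at 48 h (log2). Its part in the results below was not tested either.

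After 24 h of Aa, ATF3, DDIT3, CEBPG, ATF4 and CEBPB rose, and 0 of the 10 genes fell by limma, at an unadjusted p under 0.05 as well. After 48 h, ATF3, ATF5, DDIT3 and CEBPG rose, while TRIB3 and CEBPD fell. ATF3 changed most at both times, by 39.4-fold at 24 h and 117-fold at 48 h. The other passing changes were 1.53-fold to 2.90-fold in size. The test was limma over all 11184 genes that were expressed above background, at a Benjamini-Hochberg adjusted p under 0.05. By that test 5 of 10 members passed at 24 h, against 49.1% of all genes (26.3% rose and 22.8% fell), and 6 of 10 passed at 48 h, against 64.5% of all genes (30.6% rose and 33.9% fell). The members' share of calls was therefore near that of all genes at both times. Their median log2 change was 0.62 at 24 h, where that of all genes was 0.02, and 0.32 at 48 h, where that of all genes was -0.03. Arrays scaled to 18 hybridisation control probe sets instead put the median of all genes at -0.26 and -0.47 and that of the members at 0.33 and -0.12, so all directions given are relative to the array as a whole. Aa and control arrays did not overlap for 7 of the 10 members at 24 h, against 59.8% of all genes, and for 6 of 10 at 48 h, against 69.1% of all genes. In RNA from whole cultures, fewer cells that carry a transcript and less of it per cell cannot be told apart.

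**Figure D1:**
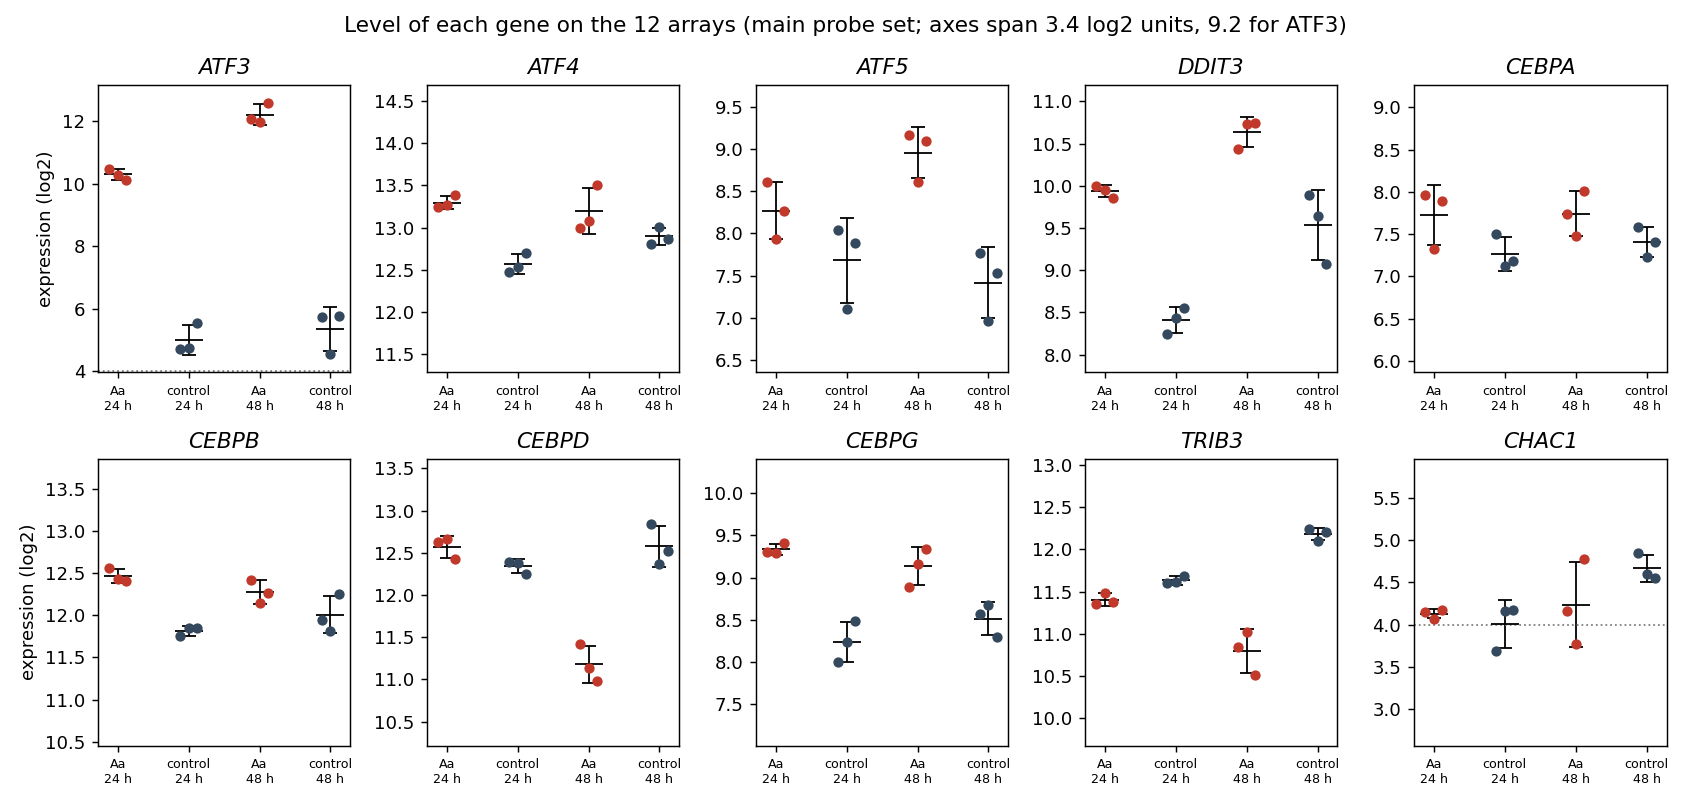
Log2 expression of the main probe set of each of the 10 genes on every array. Each point is 1 array, the bar is the group mean with its SD over 3 arrays, Aa stands to the left of control at each time, and the dotted line marks log2 4. ATF3 at 48 h lies between 11.98 and 12.60 on Aa arrays and between 4.55 and 5.78 on control arrays. CHAC1 lies near the dotted line, with its 48 h control arrays above it, at 4.55 to 4.85.

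Short promoter elements are shown for the members that had one. ATF4 with a CEBP partner, and ATF3 with other members of the AP-1 group, bind such letters. Sequences are RefSeq's (GRCh38.p14), from 250 bases before to 50 bases after each annotated start, with 18 windows for 9 members; CEBPD is named without one. On both strands, 3 motifs were searched: TGATGNAA, the core of the composite CEBP-ATF element, TGACGTCA, the cyclic AMP response element, and TGANTCA, the AP-1 site. They do not overlap one another in the elements below. Capitals mark the motif, and each line is on the strand of its gene.
ATF3 (composite, 191 bases before the start, chr1:212565205-212565234, plus strand): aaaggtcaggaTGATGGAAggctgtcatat
CEBPG (composite, 42 bases before its second start, chr19:33374060-33374089, plus strand): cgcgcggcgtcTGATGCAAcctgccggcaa
CHAC1 (composite on the opposite strand, 209 bases before the start, chr15:40953251-40953280, plus strand): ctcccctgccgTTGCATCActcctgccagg
DDIT3 (AP-1, 241 bases before the start, chr12:57520738-57520764, minus strand): gcgcgcgcaTGACTCAcccacctcctc
ATF5 (AP-1, 188 bases before the start, chr19:49928707-49928735, plus strand): ggagagtgctgTGACTCAtgctggactct
The composite letters occurred in 3.62% of all 35116 promoter windows, the AP-1 letters in 7.71% and the cyclic AMP response element in 1.85%. The windows of ATF4, CEBPA, CEBPB and TRIB3 held none of the 3 sets of letters, which says nothing of sites elsewhere. A match describes the letters and does not show that a factor bound there.

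Composite letters stand in the first promoter window of ATF3, as in that of CHAC1, which did not pass at either time. Whether such letters had a part in any change was not tested. ATF3, a bZIP factor that represses or activates with its partner, was the most changed of the 10 genes. Its main probe set (202672_s_at) read 10.48, 10.30 and 10.14 in Aa cells and 4.71, 4.76 and 5.55 in control cells at 24 h, for replicates 1 to 3 on the log2 scale. At 48 h it read 12.09, 11.98 and 12.60 in Aa cells and 5.73, 4.55 and 5.78 in control cells. Each of the 6 Aa arrays was more than 4 log2 units above the highest control array of its time, and the groups did not overlap. The log2 change was 5.30 (SE 0.332, adjusted p = 5.08e-07) at 24 h and 6.87 (SE 0.332, adjusted p = 4.76e-08) at 48 h. Among the 11184 genes it had the 19th largest rise at 24 h and the 5th largest at 48 h. Within Aa cells ATF3 was 3.77-fold higher at 48 h than at 24 h (adjusted p = 0.00220), whereas in control cells the difference between times was 0.35 on the log2 scale and did not pass (adjusted p = 0.627). The levels thus ran from Aa at 48 h through Aa at 24 h to the control groups, which did not differ beyond their spread. The change at 48 h exceeded that at 24 h by 1.57 (SE 0.470, adjusted p = 0.0400), but this call rests on the full set of arrays. It passed in 3 of 15 fits that left out a replicate number or 1 array, those without Aa replicate 2, control replicate 1 or control replicate 3 at 48 h, with adjusted p between 0.0265 and 0.149 over the 15. It was also lost with no filter on low values (adjusted p = 0.0938) and with the hybridisation control scaling (adjusted p = 0.0550).

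The other ATF3 probe sets did not read alike. Probe set 1554980_a_at read 7.85, 6.40 and 7.61 in Aa cells and 3.24, 3.16 and 3.16 in control cells at 24 h. The 48 h readings were 9.58, 9.25 and 10.32 in Aa cells and 3.22, 3.22 and 3.23 in control cells. Its control arrays all lay at background, below log2 4, so the rise is a bound: at least 9.77-fold at 24 h and at least 52.5-fold at 48 h. The bounds take the background arrays at log2 4. This probe set was over log2 4 on 6 arrays, all with Aa. It passed the expression filter only through them, so no p is given for it. For the second probe sets of other genes below, limma ran over 23669 probe sets, of which 46.5% passed at 24 h and 60.7% at 48 h. The third probe set, 1554420_at, stayed between 2.13 and 2.33 on all 12 arrays and carries no measurable signal. Its log2 changes of -0.01 at 24 h and 0.15 at 48 h lie within background.

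ATF4, the central activator of the response, was already among the bright probe sets in control cells. It read 13.25, 13.27 and 13.38 in Aa cells and 12.47, 12.54 and 12.70 in control cells at 24 h. After 48 h it read 12.99, 13.08 and 13.51 in Aa cells and 12.81, 13.01 and 12.87 in control cells. The groups were apart at 24 h and overlapped at 48 h, where Aa replicate 1 lay below control replicate 2. ATF4 rose 1.66-fold at 24 h (log2 0.73, SE 0.135, adjusted p = 0.00105), and at 48 h its log2 change was 0.30 (95% interval 0.00 to 0.60, adjusted p = 0.0734). With the replicate number as a block that 48 h change passed (adjusted p = 0.0284), as it did without Aa replicate 1 of 48 h (adjusted p = 0.0321). The difference between times was -0.43 (adjusted p = 0.133), 0.0479 with the block and 0.0309 without Aa replicate 3 of 48 h. The 48 h change passed as well under quantile normalisation (adjusted p = 0.0274) and with a trended, robust variance (adjusted p = 0.0416). ATF4 did not pass in either comparison between times, with a log2 difference of -0.10 in Aa cells and 0.33 in control cells; the hybridisation control scaling gave -0.58 in Aa cells, which passed (adjusted p = 0.00987).

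ATF5, a relative of ATF4 under a similar translational control, has a wide spread between replicate numbers. It read 8.61, 7.93 and 8.27 in Aa cells and 8.04, 7.11 and 7.89 in control cells at 24 h. At the later time it read 9.16, 8.61 and 9.09 in Aa cells and 7.76, 6.96 and 7.54 in control cells. Replicate 2 was the lowest of its group in all 4 groups, and the groups overlapped at 24 h and were apart at 48 h. ATF5 rose 2.90-fold at 48 h (log2 1.54, SE 0.288, adjusted p = 0.000735). Its 24 h change was 0.59 (95% interval -0.05 to 1.22, adjusted p = 0.115) and passed with the replicate block (adjusted p = 0.000659). The block also brought the difference between times, 0.95, to an adjusted p of 0.00141 against 0.123 without it, and the difference of 0.68 between Aa cells at 48 h and 24 h to 0.000755 against 0.0994. Without control replicate 2 of 24 h the difference between times had an adjusted p of 0.0465, and without replicate 2 throughout the difference within Aa cells had 0.0432. A second probe set, 204999_s_at, gave 0.52 at 24 h (adjusted p = 0.135) and 1.52 at 48 h (adjusted p = 0.000521). The dim probe sets 217389_s_at and 230938_x_at, with means of 4.27 and 4.03, gave 48 h changes of 0.03 and 0.01 that did not pass.

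DDIT3, which dimerises with CEBP proteins and blocks many of their usual sites, rose after Aa at both times, and its control level also differed between times. It read 9.99, 9.95 and 9.85 in Aa cells and 8.25, 8.44 and 8.56 in control cells at 24 h. At 48 h the values were 10.43, 10.74 and 10.74 in Aa cells and 9.89, 9.64 and 9.08 in control cells. Aa and control arrays were apart at each time, and control replicate 1 at 48 h was within 0.2 of the Aa arrays of 24 h. DDIT3 was 2.87-fold higher with Aa at 24 h (log2 1.52, SE 0.186, adjusted p = 6.15e-05) and 2.15-fold higher at 48 h (log2 1.10, SE 0.186, adjusted p = 0.000346). The 2 changes differed by -0.42 (95% interval -0.999 to 0.16, adjusted p = 0.281); without control replicate 3 of 48 h the adjusted p was 0.0361.

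Control cells held 2.18-fold more DDIT3 at 48 h than at 24 h (adjusted p = 0.0378). It was the only one of the 10 members to pass between control times, where 0.635% of all genes passed (0.277% higher and 0.358% lower at 48 h). That call held in 3 of 15 fits with a replicate number or 1 array left out, those without replicate 3, without Aa replicate 1 of 48 h or without control replicate 3 of 48 h (adjusted p between 0.00263 and 0.457), and was lost with no filter on low values (adjusted p = 0.0562). TRIB3 was next by adjusted p, with 0.55 between control times (adjusted p = 0.0692). It passed with the replicate block (adjusted p = 0.0194) and without Aa replicate 3 of 48 h (adjusted p = 0.0481). With a trended, robust variance it passed as well (adjusted p = 0.0385). Within Aa cells DDIT3 was 1.63-fold higher at 48 h than at 24 h (adjusted p = 0.0171), a call lost without replicate 2, and without Aa replicate 3 of 24 h or Aa replicate 2 or 3 of 48 h (adjusted p = 0.168, 0.0506, 0.0541 and 0.0570). The hybridisation control scaling also ended it (adjusted p = 0.336). From high to low its levels ran Aa at 48 h, Aa at 24 h, control at 48 h and control at 24 h.

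**Figure D2:**
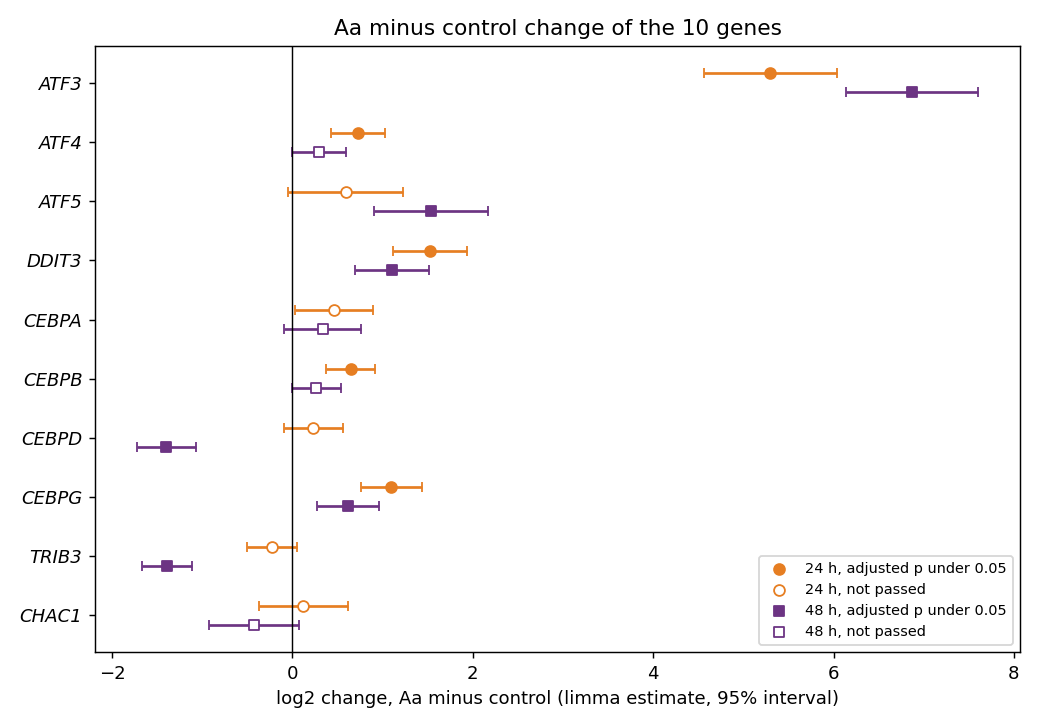
Log2 change, Aa minus control, of the main probe set of each of the 10 genes at 24 h and 48 h. Points are limma estimates, lines are their 95% intervals, and filled points passed at an adjusted p under 0.05. TRIB3 and CEBPD lie near 0 at 24 h, at -0.23 and 0.23, and at -1.39 and -1.40 at 48 h.

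Among the CEBP genes, CEBPG and CEBPB rose at 24 h, CEBPG alone passed as a rise at 48 h, CEBPD fell at 48 h, and CEBPA did not pass at either time. CEBPG, a short CEBP protein without an activation domain of its own that pairs with ATF4, has composite letters at its second start. It read 9.30, 9.30 and 9.41 in Aa cells and 8.01, 8.23 and 8.48 in control cells at 24 h. At 48 h it read 8.89, 9.16 and 9.34 in Aa cells and 8.57, 8.68 and 8.30 in control cells. The groups were apart at both times, by a wider margin at 24 h. CEBPG rose 2.14-fold at 24 h (log2 1.10, SE 0.155, adjusted p = 0.000167) and 1.53-fold at 48 h (log2 0.62, SE 0.155, adjusted p = 0.00474). The difference between those changes, -0.48, did not pass (adjusted p = 0.142). Under the hybridisation control scaling the 48 h rise was lost (log2 0.18, adjusted p = 0.366), and the difference between times within Aa cells passed (log2 -0.68, adjusted p = 0.00478), against -0.20 without it (adjusted p = 0.355). Its second probe set, 204203_at, gave 0.39 at 24 h (adjusted p = 0.127) and 0.70 at 48 h (adjusted p = 0.00947). Both probe sets gave positive changes at 24 h, where only the main one passed.

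CEBPB, an activator of acute-phase and inflammatory genes that also pairs with ATF4, read 12.56, 12.43 and 12.40 in Aa cells and 11.75, 11.85 and 11.85 in control cells at 24 h. The 48 h readings were 12.42, 12.14 and 12.26 in Aa cells and 11.95, 11.82 and 12.25 in control cells. The groups were apart at 24 h, and at 48 h control replicate 3 reached the level of the Aa arrays. CEBPB rose 1.56-fold at 24 h (log2 0.64, SE 0.123, adjusted p = 0.00131), and its 48 h change of 0.27 did not pass (95% interval -0.01 to 0.54, adjusted p = 0.0796). That 48 h change passed without replicate 3 throughout (adjusted p = 0.0445) and without control replicate 3 of 48 h (adjusted p = 0.0133), under quantile normalisation (adjusted p = 0.0397) and with a trended, robust variance (adjusted p = 0.0485). With the hybridisation control scaling the 24 h rise was lost (log2 0.36, adjusted p = 0.0803). Within Aa cells that scaling gave a fall between times (log2 -0.66, adjusted p = 0.00431), against -0.19 without it (adjusted p = 0.282). The difference between times was -0.38 (adjusted p = 0.147).

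CEBPA, which drives differentiation in several tissues, read 7.96, 7.32 and 7.90 in Aa cells and 7.50, 7.13 and 7.18 in control cells at 24 h. After 48 h it read 7.74, 7.48 and 8.01 in Aa cells and 7.59, 7.23 and 7.40 in control cells. The groups overlapped at both times, and replicate 2 was the lowest of each group. The log2 change was 0.46 at 24 h (95% interval 0.03 to 0.89, adjusted p = 0.0726) and 0.33 at 48 h (95% interval -0.10 to 0.77, adjusted p = 0.156). With the replicate block both passed (adjusted p = 0.0105 and 0.0355). The 24 h change also passed without replicate 2 and without Aa replicate 2 of 24 h alone (adjusted p = 0.0300 and 0.0124), and with equal array medians (adjusted p = 0.0466).

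CEBPD, an acute-phase activator, was the CEBP gene that fell, at the later time. It read 12.63, 12.66 and 12.42 in Aa cells and 12.40, 12.38 and 12.25 in control cells at 24 h. At the later time it read 11.41, 11.14 and 10.98 in Aa cells and 12.85, 12.36 and 12.52 in control cells. The 3 Aa arrays of 48 h were the lowest of the 12, and the other 3 groups lay close together. CEBPD fell 2.64-fold at 48 h (log2 -1.40, SE 0.147, adjusted p = 1.12e-05), and its 24 h change of 0.23 did not pass (95% interval -0.09 to 0.56, adjusted p = 0.216). The difference between the changes was -1.63 (SE 0.208, adjusted p = 0.00133). Within Aa cells CEBPD was 2.63-fold lower at 48 h than at 24 h (adjusted p = 0.000153), and between control times its log2 difference was 0.24 (adjusted p = 0.433). Its second probe set, 213006_at, read 4.19, 3.72 and 3.25 in Aa cells and 6.12, 6.13 and 6.13 in control cells at 48 h. With 2 of those Aa arrays below log2 4, the fall there was at least 4.19-fold (adjusted p = 4.15e-06).

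TRIB3 and CHAC1 are targets of ATF4 with DDIT3, and neither rose in these cells. TRIB3, a pseudokinase that binds ATF4 and AKT and limits the response, read 11.35, 11.49 and 11.37 in Aa cells and 11.60, 11.61 and 11.69 in control cells at 24 h. At 48 h the values were 10.85, 11.02 and 10.51 in Aa cells and 12.24, 12.10 and 12.20 in control cells. All 6 Aa arrays lay below all 6 control arrays. TRIB3 fell 2.62-fold at 48 h (log2 -1.39, SE 0.124, adjusted p = 3.37e-06), and its 24 h change of -0.23 did not pass (95% interval -0.50 to 0.05, adjusted p = 0.153), although it did with the hybridisation control scaling (log2 -0.51, adjusted p = 0.00864) and with probe sets averaged (log2 -0.45, adjusted p = 0.0313). The changes differed by -1.16 (SE 0.175, adjusted p = 0.00269). Within Aa cells TRIB3 was 1.53-fold lower at 48 h than at 24 h (adjusted p = 0.00492). Without replicate 1 both of these calls were lost (adjusted p = 0.0564 and 0.0578). A second probe set, 1555788_a_at, gave -0.67 at 24 h (adjusted p = 0.0534) and -1.72 at 48 h (adjusted p = 0.000176); there the difference between times, -1.04, did not pass (adjusted p = 0.0762).

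CHAC1, an enzyme that breaks down glutathione, stayed near background; its promoter window holds composite letters. It read 4.15, 4.07 and 4.18 in Aa cells and 3.68, 4.17 and 4.18 in control cells at 24 h. At 48 h it read 4.16, 3.78 and 4.78 in Aa cells and 4.85, 4.59 and 4.55 in control cells. It was over log2 4 on 10 of 12 arrays, and the groups overlapped at both times. Neither its 24 h change of 0.12 (adjusted p = 0.685) nor its 48 h change of -0.43 passed (95% interval -0.92 to 0.07, adjusted p = 0.117). Without replicate 3, or without Aa replicate 3 of 48 h alone, the later change passed (adjusted p = 0.0218 and 0.00700). It also passed with the hybridisation control scaling (adjusted p = 0.0103). The CHAC1 control arrays of 48 h lay above those of 24 h, by a log2 difference of 0.66 that did not pass (adjusted p = 0.176).

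Between times, 3 of the 10 changes differed by the interaction test, ATF3 upward and CEBPD and TRIB3 downward, against 19.5% of all genes (6.8% upward and 12.7% downward). Within Aa cells 4 of the 10 genes differed between 48 h and 24 h, against 29.2% of all genes: ATF3 and DDIT3 were higher (9.65% of all genes) and CEBPD and TRIB3 lower (19.5%). With the replicate number as a block, 7 of 10 passed at 24 h (61.5% of all genes), with ATF5 and CEBPA added, and 8 of 10 at 48 h (73.3%), with ATF4 and CEBPA added. The block passed 5 of 10 in the interaction test (38.6% of all genes), with ATF4 and ATF5 added, and 5 of 10 within Aa cells (44.6%), with ATF5 added. It passed 2 of 10 between control times, DDIT3 and TRIB3 (14.9% of all genes).

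Of the 18 probe sets, 17 passed the expression filter and 13 were over log2 4 on all 12 arrays. Where several probe sets of a gene had signal, ATF3, CEBPD, CEBPG and TRIB3 changed in the same direction on each at 48 h. The brighter pair of ATF5 probe sets did as well. The second ATF3 probe set had signal in Aa cells only.

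**Figure D3:**
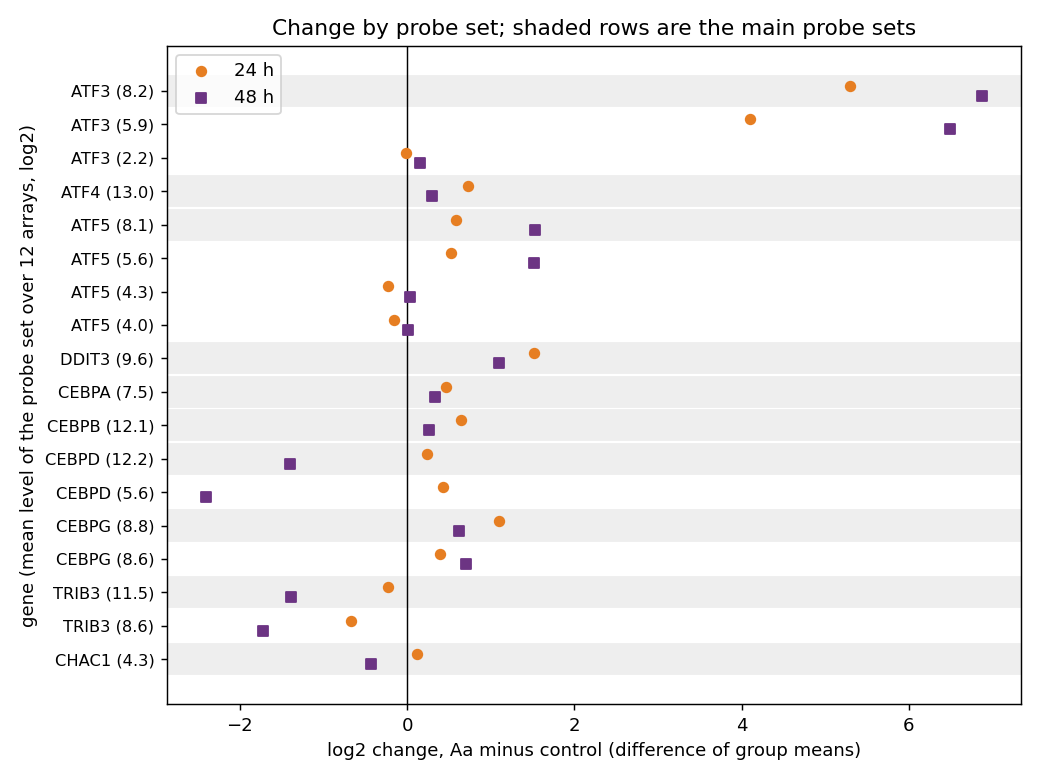
Log2 change, Aa minus control, of each of the 18 probe sets of the 10 genes at 24 h and 48 h. Shaded rows are the main probe set of each gene. The ATF3 probe sets give 5.30, 4.10 and -0.01 at 24 h; the last of these stayed at background on all arrays.

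The known targets of ATF4 were split. Of 29 listed genes 26 were tested, and 10 rose, 2 fell and 14 did not pass at 24 h (46.2% passed, against 49.1% of all genes). Their median log2 change was 0.21, or -0.08 with the hybridisation control scaling, under which 4 rose and 5 fell. Of all 11184 genes, 1668 rose and 3860 fell under that scaling at 24 h. At 48 h, 10 rose, 11 fell and 5 did not pass (80.8% passed, against 64.5% of all genes), with a median of -0.16; under that scaling 4 rose and 14 fell, with a median of -0.60. Those that did not pass at 48 h were PHGDH, CTH, EIF4EBP1, GARS1 and AARS1. STC2, a secreted glycoprotein, rose 10.2-fold at 24 h (log2 3.35, adjusted p = 3.96e-06) and rose by a log2 change of 3.46 at 48 h (adjusted p = 1.64e-06). CTH, which makes cysteine, rose at 24 h (log2 0.95, adjusted p = 0.00189). DDIT4, an inhibitor of mTORC1, fell at both times, by 1.41 at 24 h (adjusted p = 0.00164) and by 2.53 at 48 h (log2, adjusted p = 1.64e-05). VLDLR, a lipoprotein receptor, was the other gene to fall at 24 h (log2 -0.68, adjusted p = 0.0124). SLC7A11, the cystine transporter, fell 4.48-fold at 48 h (adjusted p = 9.95e-05). Genes picked after their values were seen show the split within the amino acid branch: the amino acid transporter pair SLC7A5 and SLC3A2 rose at 48 h (log2 2.11 and 1.16, adjusted p = 0.000289 and 0.000120), while the serine synthesis enzymes PSAT1 and PSPH fell (log2 -0.79 and -0.93, adjusted p = 0.00220 and 0.000210). ASNS, asparagine synthetase and a standard readout of ATF4, rose at both times (log2 0.73 and 0.59, adjusted p = 0.00444 and 0.0104).

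Upstream of ATF4, the 16 genes of eIF2alpha, its kinases and phosphatase subunits, their regulators and the exchange factor eIF2B gave 5 rises, 2 falls and 9 that did not pass at 24 h, and 7 rises, 4 falls and 5 that did not pass at 48 h. These were 43.8% called at 24 h, against 49.1% of all genes, and 68.8% at 48 h, against 64.5%. The medians were 0.02 at 24 h and 0.16 at 48 h (log2), and -0.26 and -0.28 with the hybridisation control scaling. Under it 4 rose and 5 fell at 24 h, and 5 rose and 8 fell at 48 h. Of all 11184 genes, 1668 rose and 3860 fell under it at 24 h, and 1808 and 5889 at 48 h. PPP1R15A, the stress-induced subunit that directs a phosphatase to eIF2alpha, rose 4.97-fold at 24 h (adjusted p = 4.99e-05) and 9.88-fold at 48 h (adjusted p = 2.01e-06). GCN1, the partner that activates the kinase GCN2, rose at both times (log2 0.99 and 1.49, adjusted p = 5.48e-05 and 1.48e-06). EIF2AK2, the kinase PKR, rose at 24 h (log2 0.86, adjusted p = 0.00141), and EIF2B5 and EIF2B1, subunits of the exchange factor for eIF2, rose as well (log2 0.84 and 0.33). EIF2B3, a further subunit, and IMPACT, which restrains GCN2, fell at 24 h (log2 -0.74 and -0.61). Besides PPP1R15A and GCN1, the rises at 48 h were those of EIF2S1, EIF2B1, EIF2B2, EIF2B4 and EIF2B5. At 48 h NCK1, an adaptor that also acts on eIF2alpha, fell (log2 -1.36, adjusted p = 1.83e-05). EIF2AK4, PPP1R15B and DNAJC3 fell as well (log2 -0.62, -0.61 and -0.61), while EIF2AK1, EIF2AK2, EIF2AK3, EIF2B3 and IMPACT did not pass.

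The other arms of the endoplasmic reticulum response gave 2 rises, 4 falls and 12 that did not pass among 18 tested genes at 24 h, with 6 rises, 5 falls and 7 that did not pass at 48 h. These were 33.3% called at 24 h, against 49.1% of all genes, and 61.1% at 48 h, against 64.5%. Their median was -0.10 at both times (log2). The hybridisation control scaling gave medians of -0.39 and -0.54. Its counts were 0 rises and 7 falls at 24 h, and 4 rises and 8 falls at 48 h. Among all 11184 genes that scaling gave 1668 rises and 3860 falls at 24 h, and 1808 and 5889 at 48 h. ATF6, the membrane-bound sensor factor, fell by 1.06 at 24 h (adjusted p = 0.000606) and by 2.99 at 48 h (log2, adjusted p = 2.25e-07), or 7.95-fold. ERN1, the sensor that splices XBP1 mRNA, rose (log2 0.81 and 1.56, adjusted p = 0.0146 and 0.000154), and XBP1 fell at 48 h (log2 -1.30, adjusted p = 1.16e-05). DNAJB9, a cochaperone of the lumen, rose at 24 h (log2 0.66, adjusted p = 0.00268). The chaperones HSPA5 and HSP90B1 and the degradation adaptor SEL1L also fell at 24 h (log2 -0.50, -0.35 and -0.30). The other falls at 48 h were those of SEL1L, PDIA6 and HERPUD1 (log2 -0.76, -0.30 and -0.46). All 5 falls at 48 h are thus named, while of the 6 rises only ERN1 is.

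The relatives of the members moved mostly downward at 48 h, with smaller median falls where the probe sets of each gene were averaged. Among 14 tested ATF and CREB genes, 3 rose, 2 fell and 9 did not pass at 24 h, with a median log2 change of -0.11. That is 35.7% passing, against 49.1% of all genes. At 48 h, 3 rose, 8 fell and 3 did not pass, with a median of -0.51 (78.6% passed, against 64.5% of all genes). Under the hybridisation control scaling 2 rose and 4 fell at 24 h and 3 rose and 10 fell at 48 h. Of all 11184 genes, 1668 rose and 3860 fell under it at 24 h, and 1808 and 5889 at 48 h. Without that scaling CREB3, CREB3L1 and JDP2 were those that did not pass at 48 h. With the replicate block 5 rose and 3 fell at 24 h, when 61.5% of all genes passed under it. CREBZF, a partner of ATF4 and of nuclear receptors, rose 4.01-fold at 24 h (adjusted p = 8.13e-05) and also at 48 h (log2 1.32, adjusted p = 0.000907). CREM, a cyclic AMP response factor, rose at 24 h (log2 1.39, adjusted p = 0.00179) and 5.84-fold at 48 h (adjusted p = 1.53e-05), and BATF3 rose at 48 h (log2 1.09, adjusted p = 9.01e-06). CREB1, the third gene to rise at 24 h, had a log2 change of 0.41 there and fell at 48 h (log2 -0.56, adjusted p = 0.00858). CREB5 fell at least 2.73-fold at 24 h, with 1 Aa array taken at log2 4 (adjusted p = 0.00198), and CREB3L2 was the other gene to fall then (log2 -1.18). CREB3L2 and CREB3L4, membrane-bound factors like ATF6, fell at 48 h (log2 -1.57 and -1.43, adjusted p = 5.05e-05 and 0.000911). 

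Of the 6 CEBP relatives, NFIL3 alone passed at 24 h, as a fall of 0.37 (log2, adjusted p = 0.0325). That is 16.7% passing, against 49.1% of all genes. With the replicate block 1 rose and 3 fell at 24 h, where 61.5% of all genes passed. At 48 h, 1 rose, 4 fell and 1 did not pass (83.3% passed, against 64.5% of all genes), with a median of -0.73. Under the hybridisation control scaling 0 rose and 5 fell, where 1808 of all 11184 genes rose and 5889 fell. Without that scaling the 4 fallers were NFIL3 and the 3 factors DBP, HLF and TEF, which bind clock-controlled promoters. DBP fell at least 4.75-fold, with 3 Aa arrays taken at log2 4 (adjusted p = 0.000163), HLF by 2.01 (adjusted p = 0.000120) and TEF by 0.75 (adjusted p = 0.0237) on the log2 scale. CEBPZ was the riser (log2 0.43, adjusted p = 0.00315), and CEBPE did not pass. TRIB1, the relative of TRIB3 that leads CEBP proteins to degradation, fell by 0.80 at 24 h (adjusted p = 0.00322) and 3.31-fold at 48 h (adjusted p = 9.65e-06). TRIB2 fell at least 2.68-fold at 48 h, with 1 Aa array taken at log2 4 (adjusted p = 0.0218). The CHAC1 relative CHAC2 did not pass at either time. Of these 3 relatives, 33.3% passed at 24 h, against 49.1% of all genes, and 66.7% at 48 h, against 64.5%. Their 48 h median was -1.58 (log2), and -0.80 with probe sets averaged. These lists are described by their counts and medians only, and nothing in them was tested as a set.

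**Figure D4:**
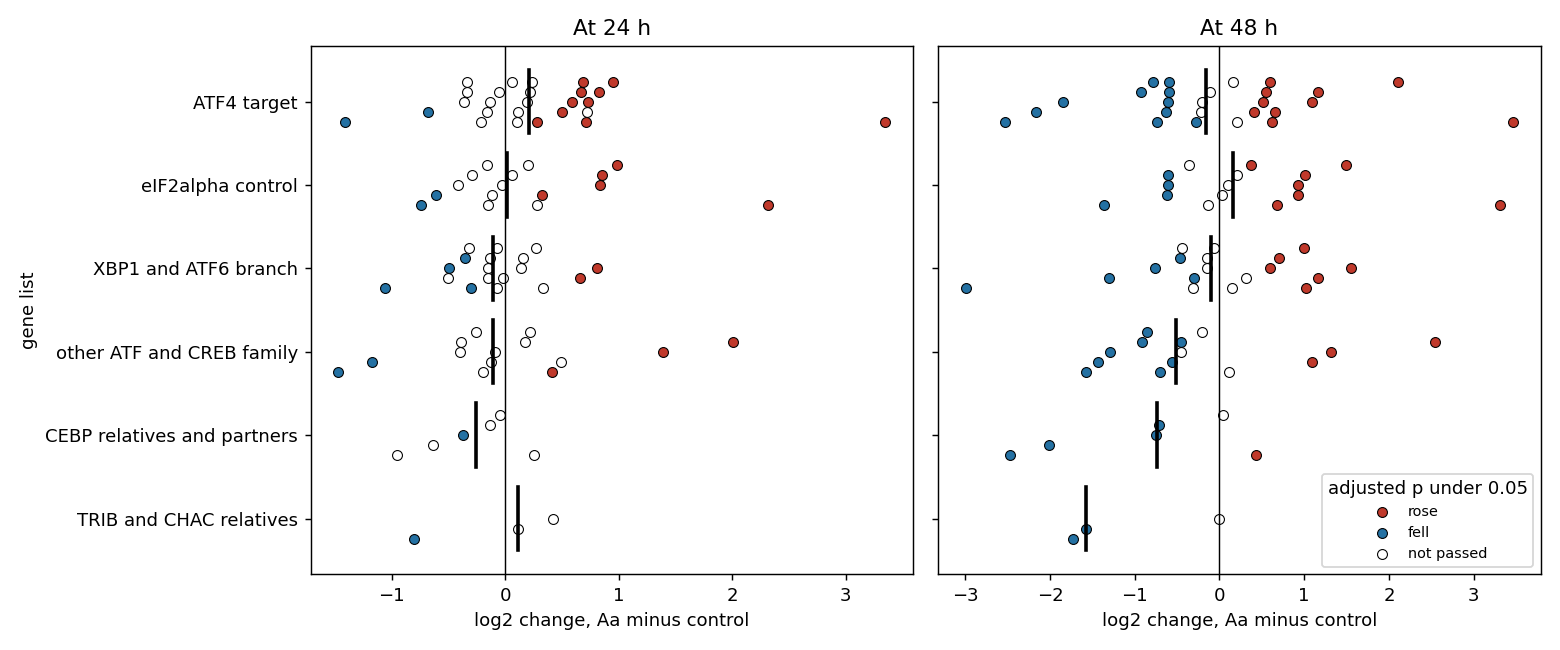
Log2 change, Aa minus control, of each tested gene of the 6 context lists at 24 h and 48 h. Each point is 1 gene, filled red where it rose and blue where it fell at an adjusted p under 0.05, and the bar is the list's median. At 48 h the medians of the ATF and CREB relatives and of the CEBP relatives lie at -0.51 and -0.73.

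The genes whose 12 values ran most like each member were ranked by the root mean square difference after each gene was centred on its own mean. PYGM, WNK4 and MYH3 were nearest to ATF3, at 0.445, 0.510 and 0.543 log2 units, where ATF3 itself had a root mean square spread of 3.14. No other tested gene was within 0.25 of ATF3 or of DDIT3, whose nearest were NATD1 at 0.291, TOB1 and SYNJ1. CEBPD had 42 genes within that distance, led by GUCY1B1 at 0.139, RAB6B and FBXL14, and TRIB3 had 242, led by LINC00621 at 0.136, SSH2 and MLLT10. ATF5 had 58, led by ATP13A2 at 0.117, SF3B4 and DHX34, and CEBPG had 231, led by TIMM23B at 0.113, ERI2 and SIRT1. ATF4 had 625, led by JAGN1 at 0.0906, BTN2A2 and NOB1. CEBPA, led by DXO at 0.0764, PRXL2B and NAGLU, and CEBPB, led by MESP1 at 0.118, LINC00526 and OSBPL2, had 628 and 1062. These counts are large where a gene varied little. CHAC1, close to background, was nearest to HERPUD1 at 0.217, EPG5 and NEU1. The ranking describes 12 arrays that share their groups, and says nothing of shared function.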

How the data were processed

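The authors deposited GCRMA values on the log2 scale for 12 Affymetrix arrays, per the submitters' processing notes; GCRMA's version and the set of arrays it ran on are not stated by the sources here. GCRMA corrects probe background by sequence, normalises arrays to nearly one distribution (the largest gap at equal rank was 0.309) and summarises probe sets, so a shift common to most transcripts is not visible. Biotinylated cRNA was made from total RNA, per the labels' protocols. The range of the values gave the log base.

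Of 54675 probe sets, 62 were controls; 41091 named 1 gene in the platform annotation, 1801 several and 11721 none, and 41037 of those naming 1 gene matched the RefSeq table (GRCh38.p14). Genes over log2 4 on at least 3 of 12 arrays were tested, 11184 in all. limma 3.58.1 in R 4.3.3 was fitted to 4 group means over all 12 arrays (8 residual and 2.79 prior degrees of freedom), with Benjamini-Hochberg adjustment over all genes tested; every adjusted p given is from limma. Fits were tested on simulated data. The median SE of a log2 change was 0.161 within a time and 0.227 for the interaction, a precision set by the number of arrays. Where the dimmer group had arrays below log2 4, they entered the fold at log2 4, and such folds are printed as "at least".

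The members, lists and tests were chosen with earlier results of these data known. Named were all 10 members and, from each list, up to 3 genes with the largest passing change at each time; other list genes were named after their values were seen. The 3 nearest genes of each member, taken from outside the members, were also named. Replicate numbers were checked for pairing. Deviations from group means correlated at 0.279 to 0.577 for the 18 same-number pairs of arrays and at -0.371 to -0.0286 for the 36 others. Deviations cancel within a group, so positive same-number values push the others negative, and these ranges are not independent. A block was fitted as an alternative and is given where it changed a call. Calls are from the fit without it unless stated. What same-numbered samples shared is not stated by the sources here. Other alternatives were filters, scalings, a floor, probe set choice, variance settings and leaving out replicates. No array dates were used. The table's list genes NUPR1, FGF21, ATF6B, CREB3L3, BATF and BATF2 did not pass the filter, and GPT2, SYVN1 and ATF1 had no probe set of 1 gene.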

Additional observations from a re-analysis of the deposited data

Results flagged for a closer look

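For 3 of the 10 genes the change after Aa differed between 48 h and 24 h by limma's interaction test. The ATF3 change was larger at 48 h by 1.57 on the log2 scale (SE 0.470, adjusted p = 0.0400), a call that held in 3 of 15 fits with a replicate number or 1 array left out and in 7 of 9 other settings. For CEBPD the difference was -1.63 (SE 0.208, adjusted p = 0.00133), and the call held in 15 of 15 and 9 of 9 such fits. For TRIB3 it was -1.16 (SE 0.175, adjusted p = 0.00269), and the call held in 14 of 15 and 9 of 9 such fits, the exception being the one without replicate 1 (adjusted p = 0.0564).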

How the results depend on the processing

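The 50 member results (10 genes in 5 comparisons) were recomputed under 9 other settings and with replicates left out. Under the other settings 407 kept direction and call, 20 gained a call, 6 lost one and 12 changed sign. Scaling to 18 hybridisation control probe sets moved the median change of all genes to -0.26 at 24 h and -0.47 at 48 h, where it was 0.02 and -0.03, and split the calls into 1668 rises and 3860 falls at 24 h and 1808 and 5889 at 48 h, against 2942 and 2550 and 3423 and 3787. Under it the CEBPB rise at 24 h (0.36, adjusted p = 0.0803), the CEBPG rise at 48 h (0.18, adjusted p = 0.366), the ATF3 difference between times (1.41, adjusted p = 0.0550) and the DDIT3 difference within Aa cells (0.23, adjusted p = 0.336) lost their calls, and TRIB3 at 24 h (-0.51, adjusted p = 0.00864) and CHAC1 at 48 h (-0.87, adjusted p = 0.0103) gained one, as did the falls within Aa cells of ATF4 (-0.58), CEBPB (-0.66) and CEBPG (-0.68). Signs turned for ATF4 (-0.14), CEBPA (-0.11) and CEBPB (-0.17) at 48 h, for CEBPD (-0.050) and CHAC1 (-0.16) at 24 h, for CEBPA (-0.46) and CHAC1 (-0.37) within Aa cells, and for CEBPA (-0.18), CEBPB (-0.13), CEBPD (-0.077) and CEBPG (-0.040) between control times; none of these had passed. The members' median there was 0.33 at 24 h and -0.12 at 48 h, and that of the ATF4 targets -0.08 and -0.60. Equal array medians turned CEBPA within Aa cells (-0.033).

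Other probe sets turned ATF3 1554420_at (-0.014 at 24 h and -0.0098 between control times, at background), ATF5 217389_s_at (-0.23) and 230938_x_at (-0.16) at 24 h, and CEBPG 204203_at between times (0.31), within Aa cells (0.16) and between control times (-0.15). With no filter on low values the ATF3 difference between times (adjusted p = 0.0938) and the DDIT3 difference between control times (adjusted p = 0.0562) were lost.

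The replicate block passed 5 members for the difference between times, 2 between control times, 8 ATF and CREB relatives and 4 CEBP relatives at 24 h; it changed no member call beyond those given in the report. It also passed 17 and 23 ATF4 targets at 24 h and 48 h, and 10 and 12 eIF2alpha control genes. In the XBP1 and ATF6 arm it passed 8 and 13 genes, and among ATF and CREB relatives 12 at 48 h. Of all genes it passed 61.5% at 24 h and 73.3% at 48 h. Between control times 0 members passed with no filter and 2 with a trended, robust variance. Of the CEBP relatives at 24 h, 3 passed under quantile normalisation or hybridisation scaling, and 2 with no filter, a floor, averaged probe sets or trended variance; of the TRIB and CHAC relatives at 48 h, 1 passed with no filter. A filter at log2 5 left out CHAC1. With replicates left out, members called ranged over 5 to 6 at 24 h, 6 to 8 at 48 h, 1 to 4 for the difference between times, 3 to 4 within Aa cells and 0 to 1 between control times. At 24 h and 48 h the ranges were 7 to 13 and 16 to 21 for ATF4 targets, 5 to 8 and 8 to 12 for eIF2alpha control, 2 to 7 and 8 to 12 for the XBP1 and ATF6 arm, 4 to 5 and 7 to 11 for ATF and CREB relatives, 0 to 2 and 3 to 5 for CEBP relatives, and 1 to 1 and 1 to 2 for TRIB and CHAC relatives. Signs turned only within CHAC1 at 24 h (-0.049 to 0.23) and within Aa cells (-0.16 to 0.34), and CEBPA between times (-0.33 to 0.0049) and within Aa cells (-0.19 to 0.14). Except where a setting removes genes or samples, the cause was not tested.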
